A study of Mus musculus with 6 samples.

Results

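The 9 genes described here encode axonal adhesion molecules of the immunoglobulin (Ig) superfamily: Ncam1, Ncam2, L1cam, Chl1, Nrcam, Nfasc, Cntn4, Kirrel3 and Cadm1. They were chosen by name with earlier results of these data known, so the shares of all genes given below are not a blind comparison. All 9 were among the 14742 genes tested. They were measured by 236 of the 209279 probe sets that carry a single gene symbol. A probe set is a small group of oligonucleotides laid on part of a gene, usually within an exon, so that 1 gene is read at many places along its transcripts.

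Olfactory epithelium was taken from 3 male C57BL/6 mice, 8 weeks old by the labels, 5 days after the olfactory bulb was removed on 1 side (olfactory bulbectomy, OBX). The OBX epithelium lay on the operated side, and the control epithelium came from the opposite side of the same animal. RNA of every epithelium was read on a separate exon array (Affymetrix Mouse Exon 1.0 ST), which gave 3 OBX and 3 control arrays. The control side belongs to an operated animal, and no epithelium of an unoperated mouse was among the samples analysed here. The age given in the study's methods is lower than that in the labels.

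Ig adhesion molecules carry Ig domains, mostly with fibronectin type III repeats, on the outside of the cell, and bind to copies of themselves or to other members on neighbouring membranes. Olfactory sensory neurons (OSNs) use them as their axons leave the epithelium, gather into fascicles and sort into glomeruli in the bulb, and ensheathing glia carry some of them too. Many are made in several forms by alternative splicing, which an exon array can in principle detect as a probe set that departs from the rest of its gene. Removal of the bulb severs the axons, after which mature OSNs die and are replaced from basal progenitors.

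Of the 9 genes, Ncam1, Ncam2, Cntn4 and Kirrel3 fell on the OBX side and Chl1 and Nrcam rose, while L1cam, Nfasc and Cadm1 did not pass the test (limma with mouse as a block, Benjamini-Hochberg adjusted p under 0.05 over all genes). Over all genes tested, 12.7% fell and 9.96% rose. Kirrel3 had the largest difference among the 9, an estimated 2.38-fold lower signal in OBX epithelium. No OBX array overlapped a control array in 5 genes with all OBX arrays below and in 2 with all OBX arrays above, against 20.6% of all genes below and 20.6% above. The median difference was -0.01 over all genes tested. All values below are log2 signals as the authors' normalization left them, and a difference is OBX minus control. They cannot be compared in level from gene to gene.

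Scaling bears on the genes that rose. Centring each array on 68 ribosomal protein genes, whose own median difference was 0.24 in the deposited values, shifted the median of all genes by -0.13 and left 12.4% of all calls higher, against 43.9% with the values as deposited. With that centring Chl1 differed by 0.52 (adjusted p = 0.0799) and Nrcam by 0.30 (adjusted p = 0.191), so neither was called, while all 4 genes that fell were still called.

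**Figure D1:**
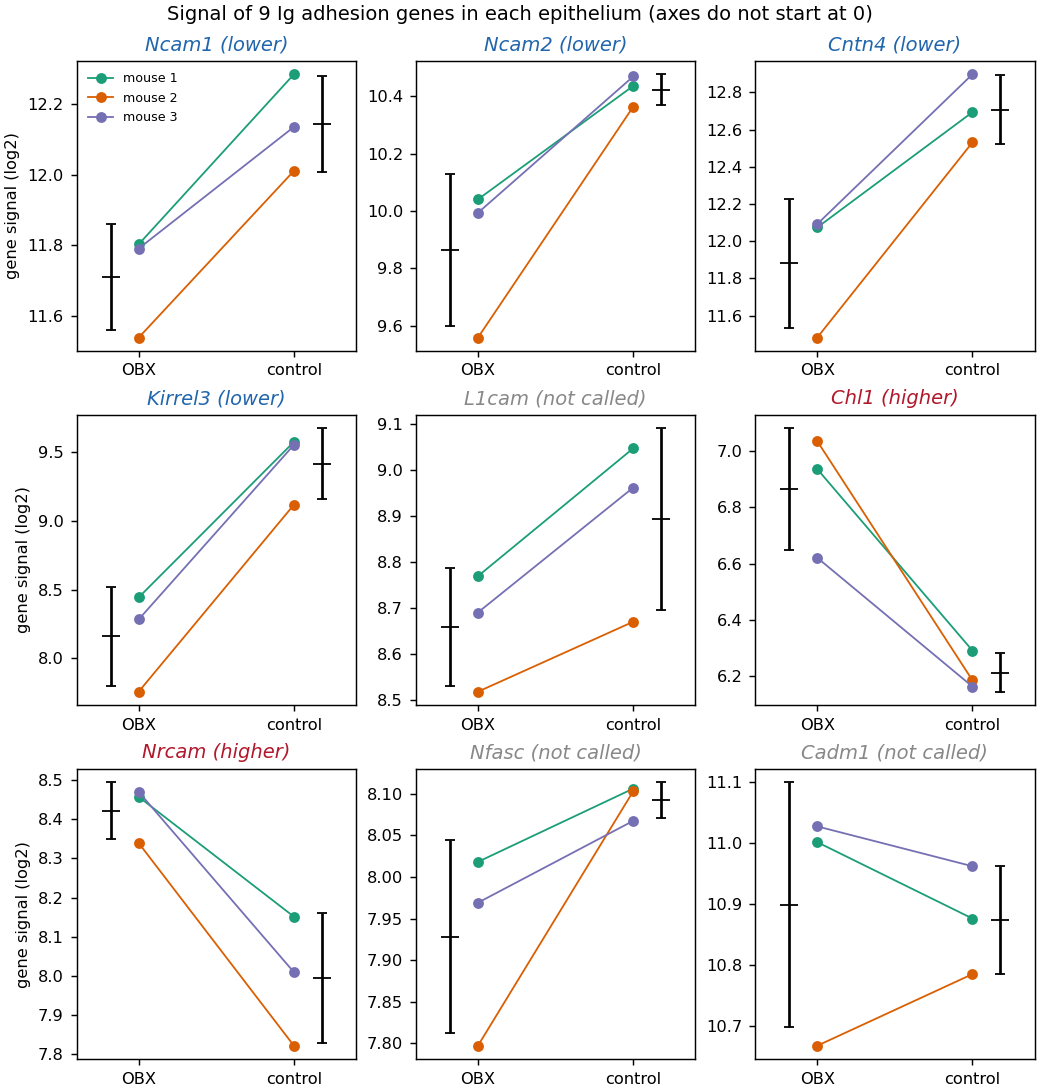
Gene signal (log2, vertical axis) of the 9 genes on the OBX side (left) and the control side (right) of each panel, with 1 line per mouse. Every line climbs towards the control side for Kirrel3, Cntn4, Ncam1 and Ncam2 and descends for Chl1 and Nrcam. For Cadm1 the line of mouse 2 climbs and those of mice 1 and 3 descend.

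Markers of mature neurons were lower on the OBX arrays. Omp, the olfactory marker protein of mature OSNs, was at 13.61, 12.66 and 13.35 in OBX epithelium of mice 1, 2 and 3, against 14.28, 14.19 and 14.19 in control epithelium (difference -1.01, adjusted p = 0.0238 by limma). Mature OSN markers fell in 9 of the 9 measured of 10 listed, and the mean level of that list ran from 10.62 to 11.61 on OBX arrays and from 12.49 to 12.70 on control arrays. Immature OSN markers fell in 1 of 9, with list levels of 11.33 to 11.71 on OBX arrays and 11.53 to 11.68 on control arrays, and Gap43, the growth-associated protein of immature OSNs, differed by 0.10 (adjusted p = 0.497). Precursor markers rose in 6 of 6 (list level 9.08 to 9.30 on OBX and 8.27 to 8.58 on control arrays), macrophage markers in 4 of 8 (8.83 to 9.56 on OBX and 8.16 to 8.58 on control arrays), and glial markers in 2 of 6 (8.39 to 8.82 on OBX and 8.11 to 8.34 on control arrays). Fibroblast markers rose in 2 of 5 (12.15 to 12.50 on OBX and 11.41 to 11.93 on control arrays), endothelial markers in 1 of 4 (7.58 to 8.25 on OBX and 6.94 to 7.47 on control arrays), horizontal basal cell markers in 1 of 4 (9.47 to 9.76 on OBX and 9.20 to 9.33 on control arrays) and respiratory markers in 1 of 3 (12.30 to 12.45 on OBX and 11.82 to 12.29 on control arrays). Sustentacular cell markers passed in 0 of 5 (12.80 to 12.96 on OBX and 12.72 to 12.78 on control arrays) and bone and cartilage markers in 0 of 3 (7.54 to 7.94 on OBX and 7.11 to 7.54 on control arrays). Cd68, a lysosomal macrophage marker, rose by 1.08 (adjusted p = 0.00478 by limma). These shifts move with the side, and their part in the differences below was not tested. In whole tissue, fewer cells of a type and less RNA per cell cannot be told apart.

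Both members of the NCAM family fell. Ncam1, the neural cell adhesion molecule that binds itself across membranes and carries polysialic acid, was at 11.80, 11.54 and 11.79 in OBX epithelium, against 12.28, 12.01 and 12.13 in control epithelium. Every OBX array lay below every control array. The difference was -0.43 (SE 0.09, 95% interval -0.65 to -0.21), a 1.35-fold lower signal in OBX epithelium (adjusted p = 0.0286 by limma). The side means were 11.71 ± 0.15 in OBX and 12.14 ± 0.14 in control epithelium (SD, n = 3 each), and the differences within mice 1, 2 and 3 were -0.48, -0.47 and -0.34.

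Ncam2, also known as OCAM, is a membrane-bound relative of Ncam1 that in mice marks the axons of ventral and lateral OSN zones. It was at 10.04, 9.56 and 9.99 in OBX epithelium, against 10.44, 10.36 and 10.47 in control epithelium. The groups did not overlap, and the OBX epithelium of mouse 2 was the lowest of the 6 arrays. Ncam2 differed by -0.56 (SE 0.11, 95% interval -0.85 to -0.27), 1.47-fold lower in OBX epithelium (adjusted p = 0.0300 by limma). Differences within mice were -0.40, -0.81 and -0.48.

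Both calls lost the threshold when a mouse was left out. Ncam1 was not called without mouse 1, 2 or 3 (adjusted p = 0.0853, 0.0558 and 0.166), and Ncam2 was not called without mouse 3 (adjusted p = 0.139). Over all genes, 787 fell and 58 rose without mouse 3, against 1875 and 1468 with all 3 mice.

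Cntn4, a contactin held to the membrane by a lipid anchor that in mice takes part in the sorting of OSN axons to glomeruli, was at 12.07, 11.48 and 12.09 in OBX epithelium, against 12.69, 12.53 and 12.90 in control epithelium. All OBX arrays lay below all control arrays. The difference was -0.83 (SE 0.11, 95% interval -1.12 to -0.53), a 1.77-fold lower signal in OBX epithelium (adjusted p = 0.0117 by limma). The within-mouse differences were -0.62, -1.05 and -0.81, and without mouse 3 the gene was not called (adjusted p = 0.0714).

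Kirrel3 belongs to the nephrin-like Kirrel family, whose members in mice are expressed by complementary sets of OSNs and let axons that carry the same member adhere to each other. Its signal was 8.44, 7.76 and 8.28 in OBX epithelium, against 9.57, 9.12 and 9.55 in control epithelium. The highest OBX array was below the lowest control array. Kirrel3 differed by -1.25 (SE 0.09, 95% interval -1.49 to -1.01), 2.38-fold lower in OBX epithelium (adjusted p = 0.00286 by limma), and 4.48% of all genes tested had a lower difference. Differences within mice were -1.13, -1.36 and -1.27. It was the only member still called with any single mouse left out, and without mouse 3 its adjusted p was 0.0184.

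The intervals of the 4 genes that fell were separate only in part, which does not settle their order. The interval of Kirrel3 lay below those of Ncam2 and Ncam1 and overlapped that of Cntn4. The intervals of Cntn4, Ncam2 and Ncam1 overlapped each other. No direct test between genes was made.

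**Figure D2:**
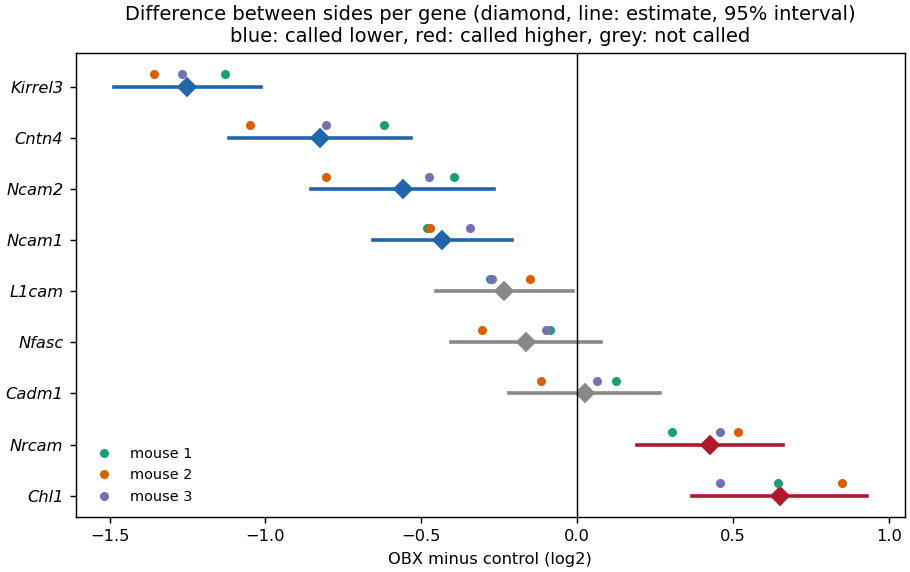
OBX minus control (log2, horizontal axis) for each gene, with a diamond and line for the limma estimate and its 95% interval and a dot for each mouse. Kirrel3 lies at -1.25 and Chl1 at 0.65, and the interval of Cadm1 spans 0 from -0.22 to 0.27.

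Of the L1 family, Chl1 and Nrcam rose and L1cam and Nfasc did not pass. Chl1, the close homologue of L1 that acts in neurite growth and integrin-dependent migration, was at 6.94, 7.04 and 6.62 in OBX epithelium, against 6.29, 6.19 and 6.16 in control epithelium. All OBX arrays lay above all control arrays, and mouse 2 had both the highest OBX value and the widest gap. Chl1 differed by 0.65 (SE 0.11, 95% interval 0.37 to 0.93), 1.57-fold higher in OBX epithelium (adjusted p = 0.0185 by limma). Within mice the differences were 0.64, 0.85 and 0.46, and without mouse 3 the gene was not called (adjusted p = 0.0718). Its signal was among the lower ones on these arrays, and it was left out of the test when the lowest 30% of genes were dropped.

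Nrcam, an L1 family molecule that partners contactins and Nfasc and anchors to ankyrin, was at 8.46, 8.34 and 8.47 in OBX epithelium, against 8.15, 7.82 and 8.01 in control epithelium. The lowest OBX array was above the highest control array. The difference was 0.43 (SE 0.09, 95% interval 0.19 to 0.66), a 1.35-fold higher signal in OBX epithelium (adjusted p = 0.0329 by limma). Within mice it was 0.31, 0.52 and 0.46, and Nrcam was not called without mouse 1, 2 or 3 (adjusted p = 0.0549, 0.0672 and 0.226). With the median of a gene's probe sets in place of median polish, Chl1 (0.64, adjusted p = 0.0719) and Nrcam (0.50, adjusted p = 0.0507) missed the threshold as well.

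L1cam, the founding member, which promotes axon growth and fasciculation, was at 8.77, 8.52 and 8.69 in OBX epithelium, against 9.05, 8.67 and 8.96 in control epithelium. The groups overlapped, because the control epithelium of mouse 2 was below OBX arrays of the other mice, although the OBX side was the lower in each mouse. The difference of -0.23 (SE 0.09, 95% interval -0.45 to -0.01) did not pass (adjusted p = 0.115 by limma).

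Nfasc, neurofascin, which in other neurons organizes the axon initial segment and the node of Ranvier, was at 8.02, 7.80 and 7.97 in OBX epithelium, against 8.11, 8.10 and 8.07 in control epithelium. The OBX arrays all lay below the control arrays, by a margin under the spread among OBX arrays. The difference was -0.16 (SE 0.09, 95% interval -0.40 to 0.08, adjusted p = 0.259 by limma). The interval leaves room for a fall as large as 0.40 and for no fall.

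Cadm1, SynCAM 1, a synaptic and epithelial adhesion molecule, was at 11.001, 10.668 and 11.027 in OBX epithelium, against 10.876, 10.785 and 10.962 in control epithelium. The sides overlapped, with the OBX epithelium of mouse 2 the lowest of the 6 arrays and that of mouse 3 the highest. The difference was 0.02 (SE 0.09, 95% interval -0.22 to 0.27, adjusted p = 0.872 by limma), and it changed sign with the scaling, to -0.01 with arrays centred on their medians and to -0.11 with ribosomal centring.

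Members also differed in how the mice ranked. The OBX fall was smallest in mouse 1 and largest in mouse 2 for Cntn4 (-0.62 and -1.05), Ncam2 (-0.40 and -0.81) and Kirrel3 (-1.13 and -1.36). The mean difference of the 9 mature OSN markers ran the same way, at -1.09, -1.88 and -1.46 in mice 1, 2 and 3. The order was not particular to them. In size it was shared by the means of macrophage (0.63, 0.98 and 0.66), endothelial (0.16, 1.31 and 0.47), glial, and bone and cartilage markers. Nrcam (0.31, 0.52 and 0.46) and Nfasc (-0.09, -0.31 and -0.10) had it too. Precursor, fibroblast, horizontal basal, sustentacular and respiratory markers did not. Ncam1 had its smallest fall in mouse 3 instead. With 3 mice this order is a description only.

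Single probe sets gave a view along each gene. Of the 236 probe sets, 229 were tested and 7 were left out for low signal (3 of Chl1, 2 of Nrcam and 1 each of Nfasc and Cadm1). Of those tested, 41 fell and 4 rose over all 188351 probe sets tested, against 4.26% of all probe sets that fell and 2.50% that rose. Without mouse as a block, 27 fell. Probe sets of a gene read the same RNA and are not replicates of it. All OBX arrays lay below all control arrays in 90 of the 229 and above them in 38, against 15.0% and 17.2% of all probe sets. The median difference of all probe sets was 0.01.

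Kirrel3 and Cntn4 held most of the probe sets that fell. In Kirrel3, 21 of 23 fell, and the whole gene ran from -1.62 to 0.09 with a median of -1.23. In Cntn4, 16 of 21 fell, the whole gene ran from -1.06 to -0.48 with a median of -0.83, and 20 probe sets had no overlap between the sides. For Ncam2, 3 of 23 fell, yet all 23 differences were below 0 and 20 had no overlap, between -0.81 and -0.06. Without mouse 2 or without mouse 3, 0 of the members' probe sets passed in either direction, and without mouse 1, 26 fell and 5 rose. The shares of all probe sets that passed with a mouse left out are not given here. These counts therefore cannot be read as particular to the members.

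Of the genes that rose, Chl1 had 3 of 27 tested probe sets that rose, with differences from -0.24 to 1.32 and a median of 0.77. Probe set 4415078 of Chl1 was at 8.31, 7.93 and 7.43 in OBX epithelium, against 6.83, 6.58 and 6.58 in control epithelium, a difference of 1.23 (adjusted p = 0.0282 by limma). All OBX arrays lay above all control arrays there. In contrast, probe sets 5566959 and 5442890 of Chl1 stood at -0.24 and -0.21, where the sides overlapped, and neither departed from the rest of the gene past the threshold (adjusted p = 0.220 and 0.251 by limma's diffSplice).

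Nrcam had 1 of 45 tested probe sets that rose, 5355382, at 7.48, 7.24 and 7.72 in OBX epithelium, against 6.56, 6.39 and 6.40 in control epithelium (difference 1.03, adjusted p = 0.0317 by limma). All OBX arrays were above all control arrays. Over the gene, 42 of 45 differences were above 0, with a median of 0.42. In L1cam, 29 of 29 differences were below 0 and none was called (0 of 29), with a median of -0.19. In Nfasc, 22 of 31 were below 0 with a median of -0.17, and in Cadm1 7 of 14 were below 0 with a median of 0.01.

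**Figure D3:**
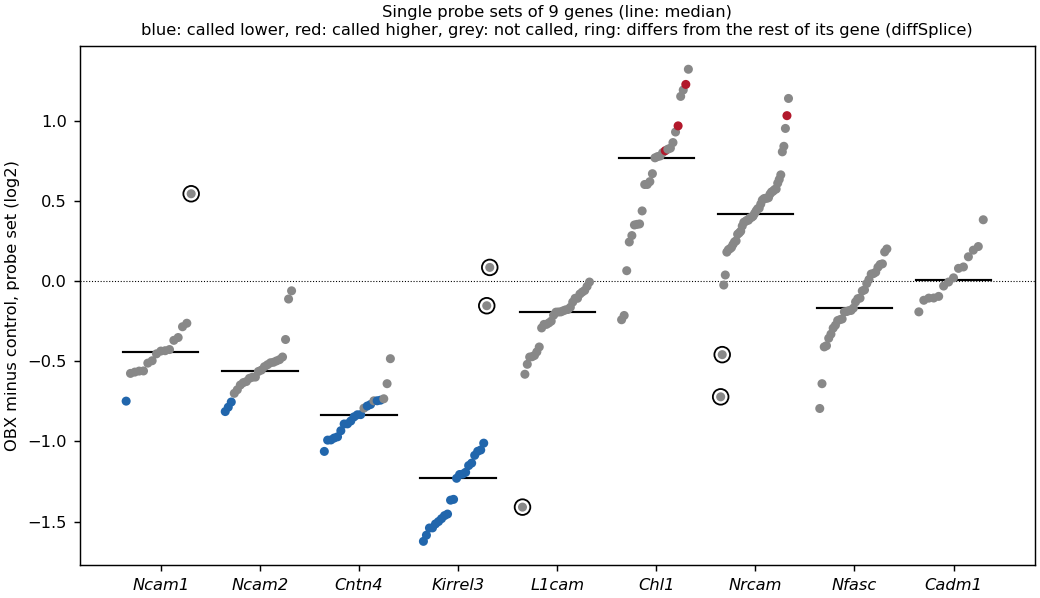
OBX minus control (log2, vertical axis) for each tested probe set, by gene, with a line at the gene's median and a ring around probe sets that differ from the rest of their gene by diffSplice. The probe sets of Cntn4 and Kirrel3 sit well below 0 except 2 of Kirrel3, and 1 ringed probe set of Ncam1 stands at 0.54 above 15 below 0.

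Whether a gene's probe sets moved together was asked with limma's diffSplice, which compares each probe set's difference with that of the other probe sets of its gene. Ncam1, Kirrel3, L1cam and Nrcam passed at the gene level (adjusted p = 2.97e-08, 6.12e-07, 0.000321 and 0.00147), against 7.99% of all genes tested. Nfasc (0.258), Ncam2 (0.232), Chl1 (0.330), Cadm1 (0.594) and Cntn4 (0.992) did not. Nrcam was not called at the gene level without mouse 1 or without mouse 3, and L1cam was not called without mouse 2. Nfasc was called when no signal filter was used. The main calls rest on 6 probe sets, against 0.848% of all probe sets so tested. diffSplice gives all probe sets of a gene 1 common spread. When each probe set was instead tested with its own spread, a test chosen after the values had been seen, 0 of the members' probe sets passed after adjustment and 22 had an unadjusted p under 0.05, against 0% and 9.97% of all probe sets. The probe sets could not be assigned to exons or isoforms with the tables used here, so they are given by number.

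Probe set 4911955 of Ncam1 was at 7.97, 7.99 and 8.15 in OBX epithelium, against 7.49, 7.62 and 7.37 in control epithelium. All OBX arrays lay above all control arrays, while the other 15 probe sets of the gene had all OBX arrays below. Its difference was 0.54, a departure of 1.01 from the rest of the gene (adjusted p = 2.70e-08 by diffSplice, 0.307 with its own spread), and the departure was 1.01, 0.87 and 1.16 in mice 1, 2 and 3. It was the dimmest probe set of Ncam1, at a mean of 7.77 against a gene median of 11.91.

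In Kirrel3 the departures were at the ends of the signal range. Probe set 4730145, the brightest of the gene, was at 11.67, 11.30 and 11.64 in OBX epithelium, against 11.72, 11.63 and 11.72 in control epithelium, and the sides overlapped. It departed from the rest of the gene by 1.10 (adjusted p = 3.02e-05 by diffSplice, 0.127 with its own spread). Without mouse 3 this departure was 1.04 and was not called (adjusted p = 0.120 by diffSplice). Probe set 5047088, the dimmest, was at 6.80, 7.27 and 6.81 in OBX epithelium, against 6.85, 6.86 and 6.91 in control epithelium. Mouse 2 alone was higher on its OBX side there, and the departure was 1.35 (adjusted p = 3.64e-07 by diffSplice, 0.197 with its own spread). Neither probe set was called lower, unlike the other 21.

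The departures in Nrcam and L1cam were in dim probe sets, with mean signals of 5.39 to 5.56 in genes whose median probe set lay at 8.19 and 8.90. Probe set 5569519 of Nrcam was at 5.12, 5.37 and 5.10 in OBX epithelium, against 6.50, 5.68 and 5.58 in control epithelium. All OBX arrays were below all control arrays in a gene that rose as a whole, and the departure was -1.16 (adjusted p = 0.000505 by diffSplice, 0.273 with its own spread). Probe set 5104864 of Nrcam was at 4.64, 5.60 and 5.23 in OBX epithelium, against 6.03, 5.71 and 5.11 in control epithelium, with overlap. Its departure of -0.89 (adjusted p = 0.0157 by diffSplice) was not called without mouse 1, 2 or 3 (-0.47, -0.97 and -1.21; adjusted p = 0.533, 0.0721 and 0.0853) or without the block (adjusted p = 0.0558).

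Probe set 4471335 of L1cam was at 5.73, 3.26 and 5.32 in OBX epithelium, against 6.66, 6.19 and 5.69 in control epithelium. The OBX epithelium of mouse 2 stood far below the other 5 arrays. The departure of -1.17 (adjusted p = 0.000143 by diffSplice) was -0.66, -2.74 and -0.09 in mice 1, 2 and 3, and without mouse 2 it was -0.38 (adjusted p = 0.480). In Nfasc, the lowest difference was that of probe set 4693602, at -0.79, whose departure of -0.66 did not pass (adjusted p = 0.122 by diffSplice). No probe set of Nfasc passed among those tested (0 of 31).

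**Figure D4:**
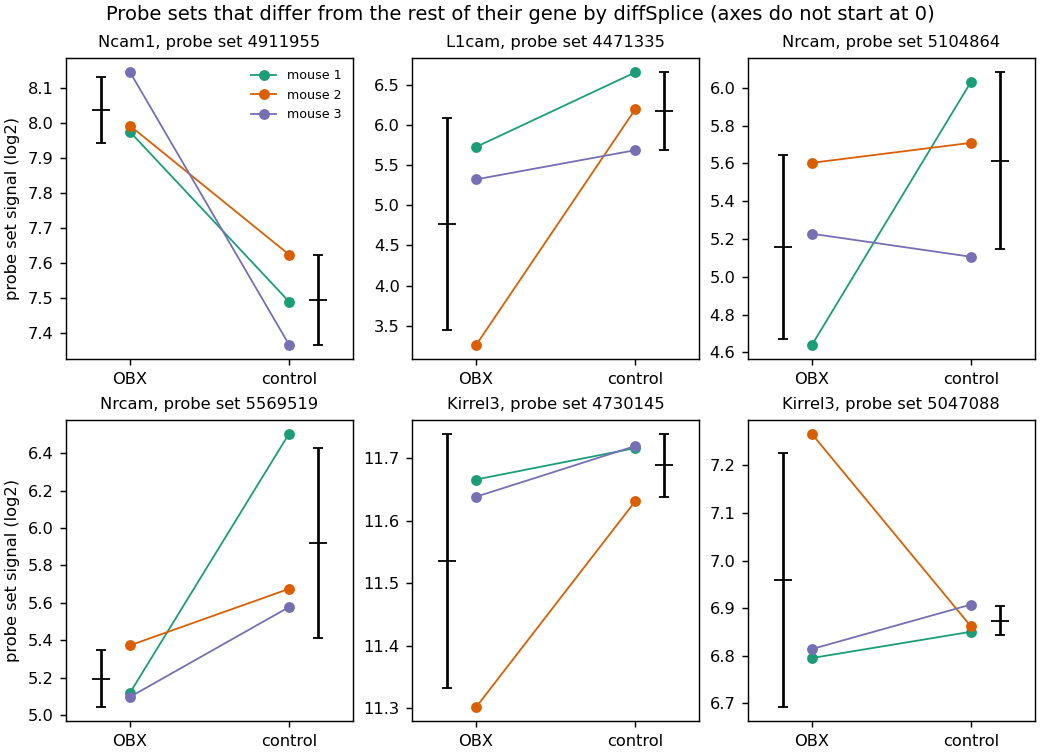
Signal (log2, vertical axis) of the 6 probe sets that diffSplice called, OBX on the left and control on the right of each panel, with 1 line per mouse. The Ncam1 panel has all OBX points above all control points, and in the L1cam panel the OBX point of mouse 2 lies alone at 3.26.

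Of 42 other Ig adhesion genes listed, 30 were tested, 5 fell and 3 rose, against 12.7% of all genes tested that fell and 9.96% that rose. Their median difference of 0.01 sat beside -0.01 for all genes tested. Igsf8, a tetraspanin-associated Ig protein, was at 10.12, 9.66 and 9.90 in OBX epithelium, against 11.08, 10.77 and 11.02 in control epithelium (difference -1.06, adjusted p = 0.00375 by limma). The groups did not overlap. Nphs1, nephrin, a binding partner of Kirrel proteins in the kidney, differed by -1.08 (adjusted p = 0.0116), and Dscam, an adhesion molecule of neurite self-avoidance, by -0.93 (adjusted p = 0.00549). Jam3, a junctional adhesion molecule, differed by -0.84 (adjusted p = 0.00809), whereas its relative Jam2 rose by 0.53 (adjusted p = 0.0177). Negr1, a member of the IgLON group, differed by -0.73 (adjusted p = 0.0113). Igsf9 rose by 0.49 (adjusted p = 0.0287) and Sdk2, a sidekick adhesion molecule, by 0.43 (adjusted p = 0.0374).

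Of the contactins besides Cntn4, Cntn1 (-0.13) and Cntn2 (-0.37) were tested and 0 of 2 passed. Of 6 tested SynCAMs and nectins, relatives of Cadm1, which was not called itself, 0 passed, with differences from -0.46 to 0.39. Without mouse 1, 2 or 3 the list had 5, 5 and 2 genes that fell and 0, 2 and 0 that rose.

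Among 30 tested of 36 listed partners and modifiers of these molecules, 5 fell and 7 rose, against 12.7% and 9.96% of all genes tested, with a median difference of 0.00. The cytoskeletal anchors moved both ways. Epb41l3, a band 4.1 protein that binds the tails of adhesion molecules, was at 9.49, 8.81 and 9.21 in OBX epithelium, against 10.32, 9.86 and 10.33 in control epithelium (difference -0.997, adjusted p = 0.00561 by limma), without overlap. Ank1, an ankyrin, differed by -0.82 (adjusted p = 0.00981), while Ezr and Rdx, ezrin and radixin, which link the membrane to actin, rose by 0.54 and 0.63 (adjusted p = 0.0170 and 0.0164). Ank2 (-0.32, adjusted p = 0.0841) and Ank3 (-0.25, adjusted p = 0.0973), ankyrins that hold the L1 family, did not pass.

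Cntnap4, a contactin-associated protein, was at 6.34, 5.62 and 6.23 in OBX epithelium, against 7.49, 7.18 and 7.26 in control epithelium, a difference of -1.25 (adjusted p = 0.00625 by limma). St8sia4, 1 of the 2 enzymes that add polysialic acid to Ncam1, was at 7.92, 8.08 and 8.02 in OBX epithelium, against 7.46, 7.24 and 7.18 in control epithelium. The OBX arrays were all above the control arrays, in the opposite direction to Ncam1, with a difference of 0.72 (adjusted p = 0.0168 by limma). St8sia2, the other enzyme, differed by 0.34 (adjusted p = 0.0970) and was named after its value was seen. The scaffold Mpdz rose by 0.86 (adjusted p = 0.0254), and Aplp2, of the amyloid precursor family, fell by 0.45 (adjusted p = 0.0283). The other 4 called genes were Ncan (-0.37), a matrix proteoglycan, Adam10 (0.40), a protease that sheds L1cam, Fgfr1 (0.59), a receptor that NCAM can engage, and Tnc (1.09), a matrix glycoprotein, all named after their values were seen. Without mouse 1, 2 or 3, this list had 3 genes that fell each time and 5, 4 and 0 that rose.

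**Figure D5:**
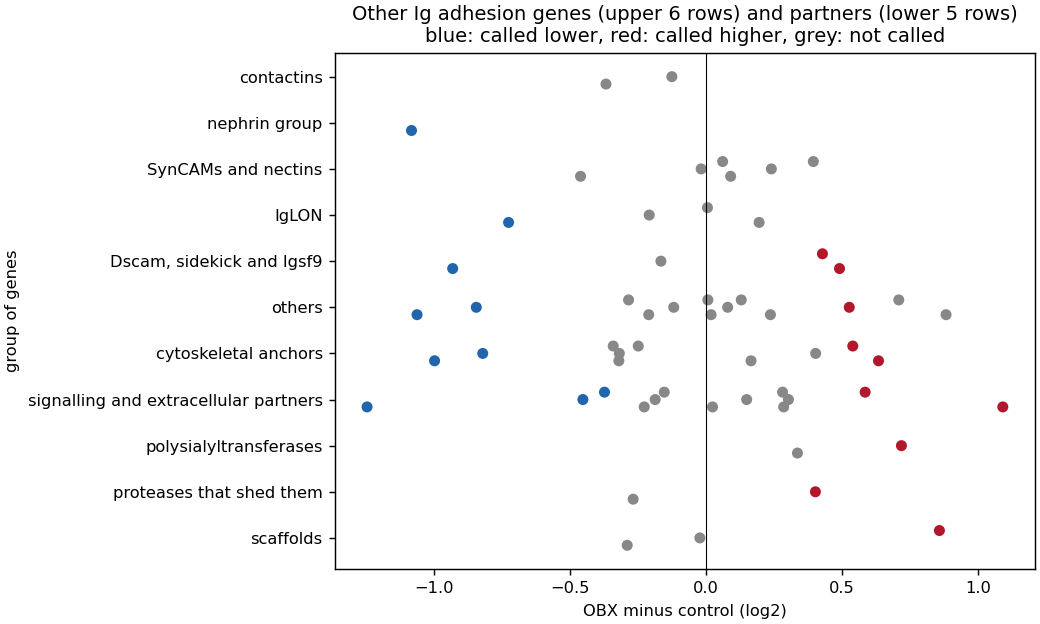
OBX minus control (log2, horizontal axis) of each tested gene of the 2 lists, by subgroup down the page. The points spread on both sides of 0, from -1.25 for Cntnap4 to 1.09 for Tnc.

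Genes with a pattern over the 6 arrays near to that of each member were listed from the genes tested. The measure was the root mean square distance of values less each gene's mean (log2). The list holds no odorant receptor gene, and its genes are not claimed to be the nearest of all genes tested. Listed for Kirrel3 were Mpp2 (0.0413), Wdr17 (0.0487) and Ppargc1a (0.0549), and for Cntn4 Lingo2 (0.0403), Map6 (0.0458) and Syt14 (0.0474). Listed for Ncam2 were Kifap3 (0.0248), Mfsd14b (0.0359) and Rab23 (0.0361), and for Ncam1 Kiss1r (0.0132), Rnft2 (0.0198) and Retreg2 (0.0270). Chl1 had Lhfpl2 (0.0447), Car12 (0.0501) and Dbi (0.0528), and Nrcam had Fzd7 (0.0182), Rasgrp1 (0.0372) and Aldh6a1 (0.0416). Such distances depend on the size of the difference as well as on the shape of the profile. The 3 genes listed for Kirrel3 differed by -1.20, -1.30 and -1.23. Over 6 arrays the distances are a description only.

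Promoter sequences were at hand for 6 of the 9 genes, and not for Ncam1, Kirrel3 or Cadm1. They come from RefSeq (GRCm38.p6) and hold the 250 bases before a start site. Those of called genes are shown because the genes moved in opposite directions, all on the plus strand: Ncam2 (chr16:81200447-81200696) and Cntn4 (chr6:106118692-106118941, the second of its 2 listed starts, shown because it holds a match), which fell, and Chl1 (chr6:103510626-103510875) and Nrcam (chr12:44328635-44328884), which rose. Capitals mark matches to CCCNNGGG, a core of the binding motif of Ebf factors, or to TAATTA, a homeodomain core, both of which occur upstream of OSN genes. Each motif is its own reverse complement, and the 2 do not overlap.
Ncam2 promoter: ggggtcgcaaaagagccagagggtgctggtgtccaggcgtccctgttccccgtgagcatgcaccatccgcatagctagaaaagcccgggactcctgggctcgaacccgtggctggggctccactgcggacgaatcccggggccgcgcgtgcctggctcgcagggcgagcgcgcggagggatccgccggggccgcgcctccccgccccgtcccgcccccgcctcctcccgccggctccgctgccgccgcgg
Cntn4 promoter: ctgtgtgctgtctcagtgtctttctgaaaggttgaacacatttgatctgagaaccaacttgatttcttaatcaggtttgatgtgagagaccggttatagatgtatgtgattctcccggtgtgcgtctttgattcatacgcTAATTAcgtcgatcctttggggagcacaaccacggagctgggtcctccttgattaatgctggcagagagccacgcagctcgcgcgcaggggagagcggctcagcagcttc
Chl1 promoter: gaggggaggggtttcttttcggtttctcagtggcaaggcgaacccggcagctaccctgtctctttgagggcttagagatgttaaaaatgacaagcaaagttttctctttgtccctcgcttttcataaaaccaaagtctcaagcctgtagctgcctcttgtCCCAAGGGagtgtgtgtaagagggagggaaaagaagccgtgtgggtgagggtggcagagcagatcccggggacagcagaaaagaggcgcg
Nrcam promoter: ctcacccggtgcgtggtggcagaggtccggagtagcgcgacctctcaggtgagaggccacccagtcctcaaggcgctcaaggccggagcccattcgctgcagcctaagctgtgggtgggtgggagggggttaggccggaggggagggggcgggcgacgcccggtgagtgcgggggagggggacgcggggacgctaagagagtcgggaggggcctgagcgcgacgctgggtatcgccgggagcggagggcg

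CCCNNGGG was found once in the Chl1 window and in 11.8% of 32851 promoters of this length, and TAATTA once in the Cntn4 window and in 4.84%. The windows of Ncam2, Nrcam, L1cam and Nfasc held neither. Ncam2 had 32 CG pairs, more than 95.4% of promoters, and Nrcam had 25, more than 89.3%, although the first gene fell and the second rose. Chl1 had 8 and the Cntn4 windows had 2 and 12, beside a median of 6. The first Cntn4 window held neither motif. A match is only a description of the letters in the window.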

How the data were processed

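Total RNA of 6 olfactory epithelia was labelled and hybridized to exon arrays. The deposited log2 values had been made by the authors with RMA in Affymetrix Expression Console, 1 value per exon-level probe set, from 1.20 to 15.17. The sources used here give no version and no genome build. Arrays of a side correlated at r = 0.970 to 0.983. The methods describe gene-level values, so that step was repeated: of 229581 probe sets, 209279 with 1 gene symbol (4446 had several, 15856 none) were summarised per gene by Tukey's median polish, with symbols updated from a RefSeq table (2120 updated, 25 kept to avoid a merge, 45 not in the table). After the study's methods, the 10% of genes or probe sets lowest in mean signal were dropped.

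Side was tested with limma 3.58.1 (lmFit, eBayes; R 4.3.3) with mouse as a block, two-sided, Benjamini-Hochberg adjusted over all features, threshold 0.05. The labels number the arrays of each side but name no animal. Arrays with the same number were taken to be from the same mouse, and the block and all differences within mice rest on this. Deviations of the sides so paired from their group means correlated at r = -0.07, 0.27 and 0.24. Exon usage was tested with diffSplice for genes with at least 4 tested probe sets. The p-values of limma for side measure the spread among 3 mice, moderated by eBayes over all features. Those of diffSplice use a spread pooled over all probe sets of a gene, so they do not measure the spread among mice alone. The scripts were tested on simulated data. Named were all 9 members, probe sets called by diffSplice or with the 2 largest departures each way, up to 8 genes a list by p, 3 markers and 3 nearest genes a member. A few listed genes are not reported here. The members and lists were chosen with earlier results of these data known. Alternatives were the methods' t-test, the block, signal filters, trended and robust eBayes, normalization, centring, probe set summaries and leaving out each mouse. Matplotlib 3.10.9 drew the plots.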

Additional observations from a re-analysis of the deposited data

How the results depend on the processing

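Every member other than Cadm1 kept its direction under all alternatives in which it was tested, and Chl1 was not tested with the lowest 30% left out. The difference of Cadm1 turned to -0.0051 with arrays centred on their median and -0.11 with ribosomal centring, and ran from -0.026 to 0.095 with a mouse left out, negative without mouse 1. Members that fell numbered 4 and those that rose 2 in the main test. The same 6 were called without the replicate block, without a signal filter, with trended and robust eBayes, after quantile normalization, with median centring and with probe set means. Members that rose numbered 1 with the lowest 30% left out, 0 with ribosomal centring and 0 with the median of probe sets. By the methods' t-test, 5 members fell and 2 rose at an unadjusted p under 0.05, against 2233 and 1614 of all genes tested. After adjustment 0 members passed in either direction, likewise 0 and 0 of the other Ig genes, 0 and 0 of the partners and 0 and 0 of the probe sets. Over all genes tested, only 1 fell and 0 rose after that adjustment, so these zeros are not particular to the listed genes. Leaving out a mouse gave 1 to 3 members that fell and 0 to 1 that rose.

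Of the other Ig genes, 8 fell and 5 rose by the unadjusted t-test and 0 rose with ribosomal centring, and leaving out a mouse gave 2 to 5 and 0 to 2. Of the partners, 11 fell by the unadjusted t-test, 1 rose with ribosomal centring, and leaving out a mouse gave 3 to 3 and 0 to 5. Of the members' probe sets, 41 fell and 4 rose in the main test. Without the replicate block, 27 fell and 6 rose, by the unadjusted t-test 75 and 18, without a signal filter 17 and 1, with the lowest 30% left out 63 and 12, with trended and robust eBayes 78 and 15, and with ribosomal centring 2 rose. Leaving out a mouse gave 0 to 26 and 0 to 5. The matching shares of all probe sets are not given here for these alternatives, so the counts cannot be read as particular to the members.

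Exon usage called 4 members and 6 of their probe sets in the main test. It called 2 members, Kirrel3 and Ncam1, with the lowest 30% left out. Without a signal filter it called 5 members, Nfasc among them, and 8 probe sets. Leaving out a mouse gave 3 members each time. With each probe set's own spread, a test chosen after seeing the data, 0 probe sets were called. Without the replicate block it called 4 members and 5 probe sets. Signs of single probe sets were followed only for the named ones, those called by diffSplice or with the 2 largest departures each way. Among these, none of the 8 whose sign turned had a called difference between the sides in the main test. Probe set 5047088 was -0.045 with ribosomal centring. With a mouse left out the ranges were -0.074 to 0.175 for 5047088, -0.092 to 0.026 for 5615997, -0.749 to 0.0080 for 5104864, -0.11 to 0.535 for 5161588, -0.031 to 0.027 for 4410570, -0.026 to 0.430 for 4662238, -0.300 to 0.069 for 5607901 (its departure -0.310 to 0.0080) and -0.228 to 0.026 for 5440468. The cause of these changes was not tested. The number of mice, 3, limits the precision of every value.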
